A study of Mus musculus with 12 samples.

Results

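The genes described here encode plasma membrane and lysosomal transporters of amino acids and of a few related solutes. They were taken as every row of the deposited table whose symbol is a numbered member of the solute carrier families Slc1a, Slc3a, Slc6a, Slc7a, Slc36a, Slc38a and Slc43a, which gave 60 of 26218 gene rows. All 60 were matched to RefSeq by gene identifier. Expression was read from the 3′ ends of amplified transcripts in 6 groups of mouse germ cells, each with 2 libraries (12 in all). Primordial germ cell-like cells (PGCLCs) are germ cells made in culture from pluripotent stem cells by way of epiblast-like cells. Here they were C57BL/6 cells carrying the Blimp1-mVenus and Stella-ECFP reporters (BVSC), sorted at day 4 of induction, expanded on m220 feeder cells (a stromal line, chiefly a subline resistant to mitomycin C), and sorted again by BV fluorescence at culture day 3, 5 or 7 (d4c3, d4c5 and d4c7). Embryonic germ cells came from ICR and C57BL/6 mixed embryos carrying a Stella-EGFP reporter (SG) and were sorted by SG fluorescence: primordial germ cells (PGCs) of embryonic day (E) 9.5, and germ cells of E12.5 from either sex. PGCLC libraries were amplified from 10 ng of RNA and embryonic libraries from 1 ng. Strain, reporter, sort and RNA input therefore cannot be told apart from culture against embryo. The labels do not split the E9.5 group by sex, give no sex for the cultured line, and give no source culture or animal for a replicate. The p-values thus rest on library-to-library spread alone, which may be technical.

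Amino acid transporters work as exchangers or as sodium- or proton-coupled importers, and most carry several related amino acids. Several Slc7a proteins are light chains that reach the membrane only as a pair with a heavy chain of the Slc3a family, whereas the cationic carriers Slc7a1, Slc7a2 and Slc7a3 act alone. Slc1a and Slc38a proteins import glutamine, alanine, serine and glutamate, and Slc6a proteins carry taurine, creatine, glycine and neurotransmitters. The amino acids that enter feed protein and nucleotide synthesis and are sensed at the lysosome by the kinase complex mTORC1, and shortage of them raises the transcription factor Atf4.

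Values are reads scaled to a common library total (RPM), which count 3′ ends and are not divided by transcript length, so they are compared between groups for 1 gene and not between genes. Depth, estimated by taking the most common value above 0 as 1 read, was 2219175 to 5817990 reads in genes per library. The upper limit behind a value of 0 was 3 reads, or 0.517 to 1.36 RPM across libraries (counting error only). Spike-in rows summed to 1372 and 628 RPM at E9.5, 12107 to 16494 RPM at E12.5 and at most 72.7 RPM in PGCLCs. The embryonic stages thus also differed in spike-in share, whose part in the comparisons was not tested. Fits were made on log2(RPM + 1) for the 10856 genes with at least 5 RPM in at least 2 libraries. Genes with a Benjamini-Hochberg adjusted p under 0.05 over all of them were called. All 10 germ cell markers on the list used, among them Dppa3, Kit and Pou5f1, were at 5 RPM or more in both libraries of every group. The E9.5 libraries also held blood and stromal transcripts: globin genes summed to 4565 and 4035 RPM there and stayed at or under 18.4 RPM in all others. Of 10 markers of red blood cells and endothelium, 7 reached 5 RPM in both E9.5 libraries and 2 in both libraries of every other group. Of 8 hindgut and endoderm markers, 3 did so at E9.5, 2 in E12.5 males and 1 in each other group. Afp was at 15.8 and 20.8 RPM at E9.5 and at most 0.301 RPM elsewhere. The sum of the 8 was 160 to 184 RPM at E9.5 and 120 to 236 RPM elsewhere. The sum of 11 fibroblast and stromal markers was 688 to 720 RPM at E9.5, 336 to 394.8 RPM at E12.5 and 211 to 509 RPM in PGCLCs, and of these markers 7 reached 5 RPM in both libraries at E9.5, 2 in either sex at E12.5 and 3 in PGCLCs. Some differed between PGCLC replicates. Dcn and Col3a1 were each at 39.7 RPM in d4c5 replicate 1, and at 1.36 and 0.904 RPM in replicate 2. Col3a1 was at 9.42 and 1.55 RPM in d4c7. Fn1 went the other way, at 171 and 397 RPM in d4c5.

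Of the 60 genes, 25 reached 5 RPM in at least 2 libraries, or 41.7%, beside 41.4% of all gene rows. By family these were 3 of 7 Slc1a genes, 1 of 2 Slc3a genes, 2 of 18 Slc6a genes, 7 of 15 Slc7a genes, 1 of 4 Slc36a genes, 9 of 11 Slc38a genes and 2 of 3 Slc43a genes. In both libraries of a group, between 16 genes (d4c5 and E12.5 males) and 19 genes (d4c7, E9.5 and E12.5 females) reached that level, with 18 in d4c3. Of the 25, 12 were at 5 RPM or more in every library: Slc1a4, Slc1a5, Slc3a2, Slc6a6, Slc7a5, Slc7a6, Slc7a9, Slc38a1, Slc38a2, Slc38a4, Slc38a7 and Slc38a10. Just inside the minimum were Slc38a3 and Slc38a6, each in 3 libraries. Just outside it were Slc7a2, a cationic carrier at 5.44 RPM in E12.5 male replicate 2 and at most 4.06 RPM elsewhere, and the proton-coupled lysosomal carrier Slc36a1, at 5.10 RPM in d4c7 replicate 1 and at most 4.998 RPM elsewhere.

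The other 33 genes did not reach 5 RPM in any library. Listed at 0 in all 12 were 8 of them: Slc3a1, Slc6a11, Slc6a16, Slc6a18, Slc6a19, Slc7a13, Slc36a2 and Slc38a11. Under 1 RPM throughout were 13, among them Slc1a1, Slc1a6, Slc1a7, Slc6a2, Slc6a4, Slc7a4, Slc7a10 and Slc7a12. The remaining 12 had highest values from 1.01 RPM (Slc36a3) to 4.01 RPM (Slc7a8, a light chain of neutral amino acid exchange). They included the glycine transporter Slc6a9 at up to 3.02 RPM, Slc6a17 at up to 3.71 RPM and the glutamate transporter Slc1a2 at up to 2.26 RPM. The others were Slc6a5, Slc6a13, Slc6a14, Slc7a14, Slc7a15, Slc38a5 and Slc43a3. Many of these genes are known from brain, kidney and gut.

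**Figure D1:**
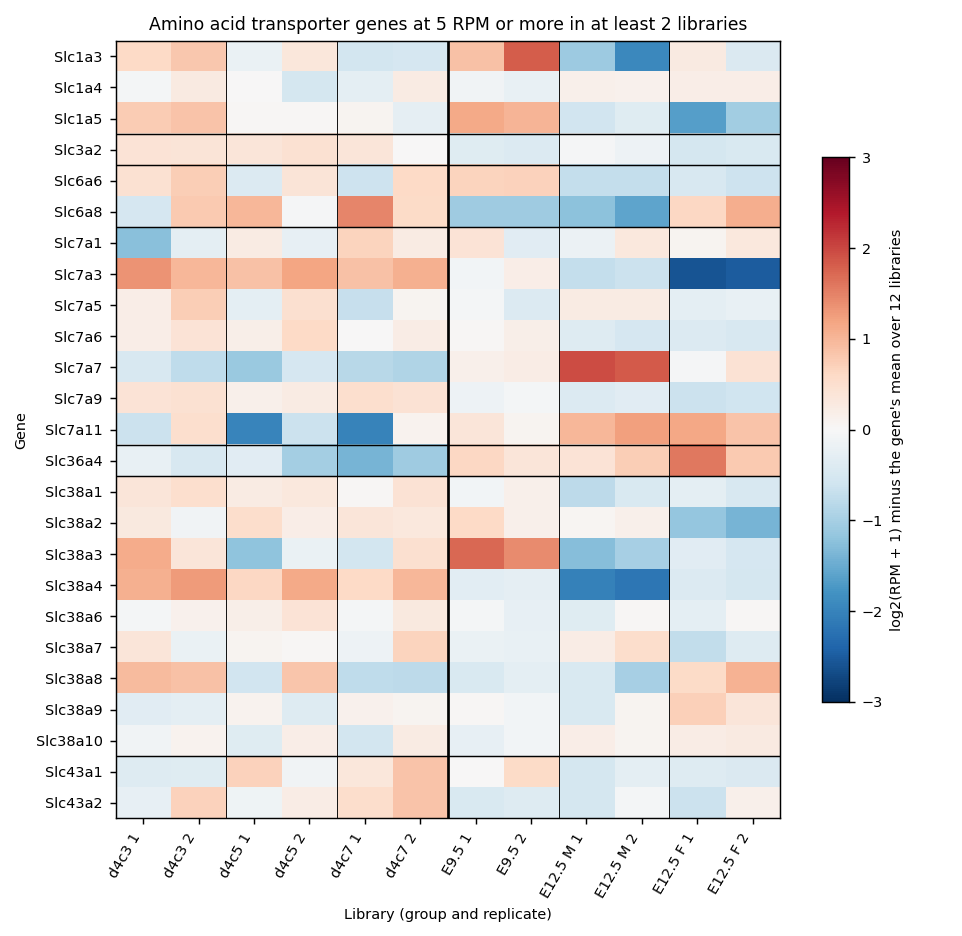
Rows are the 25 amino acid transporter genes that reached 5 RPM in at least 2 libraries, columns the 12 libraries, and colour is log2(RPM + 1) minus the mean of the gene over all libraries, from blue (lower) to red (higher). Slc7a3 and Slc38a4 are red in all 6 PGCLC libraries, Slc7a7 is reddest in the 2 E12.5 male libraries, and Slc7a3 is bluest in the 2 E12.5 female libraries.

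Summed over all 60 genes, RPM was highest in PGCLCs and lowest in E12.5 females. The sum was 1208 and 1304 RPM in the d4c3 libraries, 1059.9 and 1244 RPM in d4c5, and 1020.0 and 1140.0 RPM in d4c7. It was 901 and 879 RPM at E9.5, 744 and 749 RPM in E12.5 males, and 665 and 662 RPM in E12.5 females. No PGCLC library fell below an embryonic library. Slc3a2 and Slc38a4 made a large part of the sum, at means of 310 and 295 RPM in d4c3. Their means were 272 and 229 RPM in d4c7, and 179 and 106 RPM at E9.5. The order of the sums thus leans on these genes and is not shown for the others. These sums are a description with no test.

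By family, the Slc38a sum ran from 552 ± 17.9 RPM in d4c3 (mean ± SD, n = 2 libraries in every group) to 244 ± 11.7 RPM in E12.5 males, with 359 ± 15.0 RPM at E9.5. Slc38a4 alone was at 295 ± 33.3, 29.6 ± 2.31 and 106 ± 3.34 RPM in these 3 groups. The Slc1a sum was 77.3 ± 4.02 RPM at E9.5, 62.9 ± 5.44 RPM in d4c3, 38.2 ± 1.20 RPM in d4c7, 31.6 ± 0.721 RPM in E12.5 males and 29.1 ± 1.10 RPM in females. The Slc7a sum was lowest in E12.5 females, at 137 ± 3.36 RPM, against 200.1 ± 0.203 RPM in males. The Slc6a sum was lowest in males, at 31.0 ± 0.851 RPM, against 46.4 ± 0.991 RPM in females. Slc36a was the family whose sums were higher in every embryonic library, 10.0 to 20.9 RPM, than in any PGCLC library, 5.48 to 7.59 RPM. Slc36a4 made this pattern. Slc36a1 had group means of 3.02 to 5.05 RPM in PGCLCs and 3.68 to 4.03 RPM in embryonic cells.

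**Figure D2:**
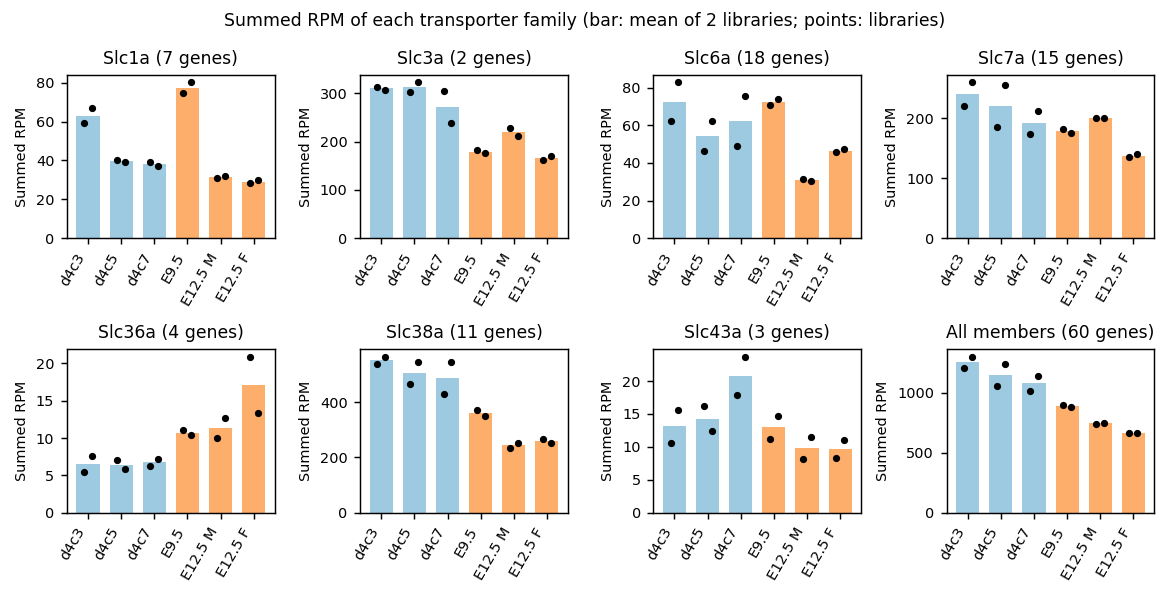
Bars are the mean summed RPM of each family in the 6 groups and points are the 2 libraries of a group, with PGCLC groups in blue and embryonic groups in orange. The sum over all 60 genes falls from 1256 RPM in d4c3 to 663 RPM in E12.5 females. Slc36a runs the other way, from 6.53 RPM in d4c3 to 17.1 RPM in E12.5 females, chiefly through Slc36a4.

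The promoters of 5 members are shown because they carry the best known amino acid response motif or belong to the neighbouring Slc38a genes that moved in opposite directions between the sexes. Each is 300 bases from RefSeq (GRCm38.p6), 250 before the start and 50 from it, 5′ to 3′ on the gene's strand. Of the 25 tested genes, 18 had an entry, with 28 start sites in all. Capitals mark matches on either strand to the C/EBP-ATF response element TGATGNAA, which is bound by Atf4 with C/EBP partners, or to the antioxidant response element TGACNNNGC, and in the windows shown no match overlapped another. The E-box CACGTG was also searched. All 5 lie on the minus strand: Slc7a11 at chr3:50443564-50443863, Slc7a7 at chr14:54417895-54418194 (1 of its starts), Slc1a4 at chr11:20332664-20332963, Slc38a2 at chr15:96699679-96699978 and Slc38a4 at chr15:97055907-97056206 (the outermost of its starts).
Slc7a11: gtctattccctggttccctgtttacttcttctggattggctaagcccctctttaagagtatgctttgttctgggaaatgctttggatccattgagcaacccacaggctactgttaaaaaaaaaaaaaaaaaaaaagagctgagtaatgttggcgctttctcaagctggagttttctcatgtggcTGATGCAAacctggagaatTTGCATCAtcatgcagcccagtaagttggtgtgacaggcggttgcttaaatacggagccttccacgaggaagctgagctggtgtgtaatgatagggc
Slc7a7: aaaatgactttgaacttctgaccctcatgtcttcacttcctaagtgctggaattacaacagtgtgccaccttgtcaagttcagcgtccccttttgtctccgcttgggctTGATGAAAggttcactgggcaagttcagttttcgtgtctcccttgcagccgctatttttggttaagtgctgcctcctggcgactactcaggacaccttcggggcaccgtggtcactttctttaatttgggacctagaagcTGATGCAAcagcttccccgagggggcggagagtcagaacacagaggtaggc
Slc1a4: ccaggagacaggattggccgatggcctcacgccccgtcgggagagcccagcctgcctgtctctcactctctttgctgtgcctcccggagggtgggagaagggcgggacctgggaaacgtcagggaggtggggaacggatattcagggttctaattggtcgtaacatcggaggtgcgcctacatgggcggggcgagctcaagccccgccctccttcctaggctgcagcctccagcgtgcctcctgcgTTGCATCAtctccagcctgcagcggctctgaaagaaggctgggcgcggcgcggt
Slc38a2: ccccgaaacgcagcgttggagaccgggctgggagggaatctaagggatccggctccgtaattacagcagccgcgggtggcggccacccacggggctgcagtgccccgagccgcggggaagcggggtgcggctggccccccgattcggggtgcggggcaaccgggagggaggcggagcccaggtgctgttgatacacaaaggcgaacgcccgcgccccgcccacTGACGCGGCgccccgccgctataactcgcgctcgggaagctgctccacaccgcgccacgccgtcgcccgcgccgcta
Slc38a4: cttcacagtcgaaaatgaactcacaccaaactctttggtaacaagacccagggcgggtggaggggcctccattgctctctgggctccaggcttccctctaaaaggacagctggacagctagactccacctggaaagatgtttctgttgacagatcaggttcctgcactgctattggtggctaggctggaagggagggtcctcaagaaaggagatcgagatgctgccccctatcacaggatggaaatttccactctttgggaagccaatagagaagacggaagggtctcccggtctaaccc

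Slc7a11 had 2 C/EBP-ATF matches, which begin 66 bases (TGATGCAA) and 47 bases (TTGCATCA) before the start. Slc1a4 had 1 that begins 4 bases before the start, and Slc7a7 had 2 in the window shown and 1 of them again in an overlapping window. In all, 4 of the 28 member promoters (14.3%, 3 genes) held TGATGNAA, against 3.97% of all 32851 RefSeq promoters and 2.14% of the 10812 of tested genes. The antioxidant element was in 5 of 28 (17.9%, against 12.4% of all and 14.4% of those of tested genes), including Slc38a2, Slc7a1, Slc7a6 and Slc43a1. The E-box CACGTG was in 2 of 28, Slc38a7 and Slc43a1 (7.14%, against 7.15% of all and 10.4% of those of tested genes). The genes with C/EBP-ATF matches did not share a pattern in the values below. Slc7a7 was highest in males, Slc7a11 was lower over all PGCLCs than over all embryonic groups, and Slc1a4 passed no test.

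The first comparison asked how transporter expression in male germ cells of E12.5 differed from that in PGCs of E9.5. In males 8 genes fell and 1 rose. The fall was largest for the glutamate transporter Slc1a3 and the glutamine transporter Slc38a3, and it included the glutamine and serine carrier Slc1a5, the taurine transporter Slc6a6 and the system A carrier Slc38a4. The gene that rose was Slc7a7, the light chain that exchanges cationic for neutral amino acids as a pair with Slc3a2. These were 9 of 25 genes called, beside 37.7% of all genes tested, with 20.0% of all genes called higher and 17.6% lower. The median log2 change was -0.26 over the 25 and 0.05 over all genes tested. Fitted on these 4 libraries alone, the same contrast called 5 genes higher and 8 lower, with Slc3a2, Slc7a5, Slc7a11 and Slc38a7 added as higher. In that fit more of all genes were called too, 5338 (2910 higher and 2428 lower) in place of 4089.

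Slc38a4 (NCBI gene 69354, chromosome 15, 96994816 to 97055956) is an imprinted gene expressed from the paternal allele in many mouse tissues. It was at 103 and 108 RPM in the E9.5 libraries and at 31.3 and 28.0 RPM in the male ones, which gave a log2 change of -1.80 ± 0.17 (SE, adjusted p = 3.98e-06). Slc1a5 (NCBI gene 20514, chromosome 7, 16781334 to 16798274) was at 49.6 and 45.8 RPM at E9.5 and at 14.7 and 17.2 RPM in males, a log2 change of -1.53 ± 0.24. For both genes the male libraries lay far below the E9.5 libraries and the pairs were tight. Slc6a6 was at 65.1 and 66.0 RPM at E9.5 and at 24.1 RPM in each male library (-1.41 ± 0.32).

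Slc1a3, known from glia, was at 10.3 and 20.5 RPM at E9.5 and at 1.88 and 0.602 RPM in males (-2.86 ± 0.41). Slc38a3 was at 9.56 and 7.55 RPM at E9.5 and at 0.313 and 0.602 RPM in males, which is 1 or 2 reads (-2.71 ± 0.45). In both genes the lower group was near the detection floor of its libraries. Slc7a7 (NCBI gene 20540, chromosome 14, 54369442 to 54420068) was at 12.9 ± 0.502 RPM at E9.5 and at 46.6 and 42.8 RPM in males, a log2 change of 1.72 ± 0.29 (adjusted p = 0.000454). Its 3′ end overlaps that of Oxa1l on the other strand by 228 bases, and the sources used here do not say whether counting used strand. Oxa1l, a mitochondrial membrane insertase gene, rose by 0.44 ± 0.15 in males and by 0.81 ± 0.15 in females. The change of Slc7a7 in females was 0.02 ± 0.29 (not called). Whether reads of Oxa1l entered the values of Slc7a7 was not tested.

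Smaller falls were seen in the neutral carrier Slc38a1 (-0.67 ± 0.18), the cationic carrier Slc7a3 (-0.74 ± 0.24) and the light chain Slc7a6 (-0.55 ± 0.16). Each of these lost the call when a single library was left out: Slc38a1 without E9.5 replicate 2 (adjusted p = 0.0924) or male replicate 1 (0.0944), Slc7a3 without any 1 of the 4 libraries (0.0552 to 0.182), and Slc7a6 without E9.5 replicate 1 (0.0501) or replicate 2 (0.125) or male replicate 2 (0.104). The globin and stromal transcripts of the E9.5 libraries moved with these falls, and their part in them was not tested. In bulk RNA, fewer cells of a type and less RNA per cell cannot be told apart.

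In female germ cells of E12.5, 7 genes fell and 2 rose against E9.5. Slc7a3, a carrier of arginine and lysine, fell most (NCBI gene 11989, chromosome X, 101079146 to 101090452). It was at 15.1 and 18.6 RPM at E9.5 and at 1.82 and 2.01 RPM in females, a log2 change of -2.61 ± 0.24 (adjusted p = 4.71e-06). Slc1a5 fell to 6.37 and 10.3 RPM (-2.41 ± 0.24, adjusted p = 7.72e-06). The starvation-induced system A carrier Slc38a2 was at 136 and 100.5 RPM at E9.5 and at 39.7 and 33.7 RPM in females (-1.65 ± 0.18). In these 3 genes every female library lay below every E9.5 library.

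The creatine transporter Slc6a8 rose in females (NCBI gene 102857, chromosome X, 73673133 to 73682502). It was at 2.57 and 2.59 RPM at E9.5 and at 10.6 and 15.1 RPM in females, a log2 change of 1.93 ± 0.46. Slc38a8, a glutamine transporter, was at 2.21 and 2.59 RPM at E9.5 and at 5.46 and 8.05 RPM in females (1.17 ± 0.43, adjusted p = 0.0458). Slc38a3 fell to 1.52 and 1.26 RPM (-2.00 ± 0.45), Slc1a3 to 6.37 and 3.52 RPM (-1.43 ± 0.41), Slc6a6 to 28.8 and 25.9 RPM (-1.23 ± 0.32) and Slc7a6 to 47.9 and 45.3 RPM (-0.56 ± 0.16).

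The 9 called of 25 stood beside 37.5% of all genes tested, with 20.4% called higher and 17.1% lower. The median log2 change was -0.11 over the 25 and 0.04 over all genes. Both E12.5 comparisons share the E9.5 libraries, whose globin and stromal transcripts moved with the falls in females too, and their part in them was not tested. Calls of 4 genes held with each library left out in turn: Slc1a5, Slc7a3, Slc38a2 and Slc38a3. The others lost it without at least 1: Slc1a3 without E9.5 replicate 2 (adjusted p = 0.175) or female replicate 2 (0.133), Slc6a6 without E9.5 replicate 1 (0.0579), E9.5 replicate 2 (0.0622) or female replicate 2 (0.0584), Slc6a8 without female replicate 2 (0.0531), Slc7a6 without E9.5 replicate 2 (0.121), female replicate 1 (0.0536) or female replicate 2 (0.0893), and Slc38a8 without any 1 of the 4 (0.0722 to 0.230).

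**Figure D3:**
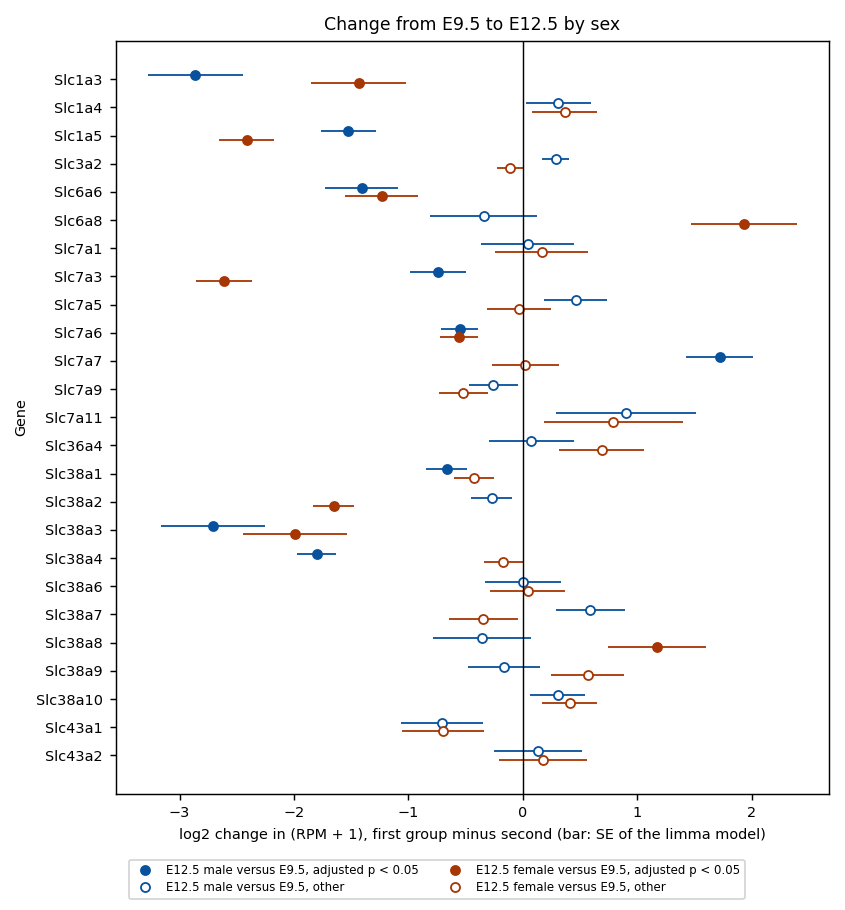
Points are log2 changes of the 25 genes from E9.5 to E12.5 males (blue) and to E12.5 females (brown), with bars for the SE of the limma model and filled points for an adjusted p under 0.05. Slc1a3, Slc1a5, Slc6a6 and Slc38a3 lie left of 0 with filled points in both sexes, while Slc7a7 and Slc38a4 are filled in males and Slc6a8 and Slc38a2 in females.

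The next comparison asked how the sexes differed at E12.5. Female germ cells had more Slc38a4, Slc6a8, Slc38a8 and Slc1a3 and less Slc7a3, Slc7a7, Slc38a2, Slc1a5 and Slc3a2 than male germ cells. In this contrast 9 of 25 genes were called, 4 higher and 5 lower in females, beside 11.9% of all genes tested (6.68% higher, 5.27% lower). The median log2 difference was 0.04 over the 25 and 0.00 over all genes, and the median size of the difference was 0.50 over the 25 and 0.28 over all genes. That count describes these 25 genes, and no test compared them with other genes.

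Slc38a4 was at 97.6 and 90.0 RPM in females against 31.3 and 28.0 RPM for males. The log2 difference was 1.63 ± 0.17 (adjusted p = 4.86e-05). Slc38a2, its neighbour, went the other way, at 39.7 and 33.7 RPM against 93.8 and 100.0 RPM (-1.38 ± 0.18, adjusted p = 0.000252). The genes Slc38a1, Slc38a2 and Slc38a4 lie in that order on chromosome 15, with 44.0 kb between the first pair and 295 kb between the second and no other protein-coding gene in either gap. Slc38a1 was in females at 47.3 and 41.2 RPM and 33.1 and 41.8 RPM for males, so that its groups overlapped (0.24 ± 0.18, adjusted p = 0.427).

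Slc7a7 was at 10.9 and 15.6 RPM in females against 46.6 and 42.8 RPM in males (-1.70 ± 0.29, adjusted p = 0.00202). Slc7a3 was at 1.82 and 2.01 RPM against 9.38 and 9.94 RPM (-1.87 ± 0.24, adjusted p = 0.000261). Slc6a8 was at 10.6 and 15.1 RPM against 2.19 and 1.51 RPM (2.27 ± 0.46, adjusted p = 0.00622). Slc7a3 and Slc6a8 are both X-linked and were the X-linked members tested, and they differed between the sexes in opposite directions. RefSeq places 1086 bases of Slc7a3 within the span of Snx12 on the same strand. Snx12, a sorting nexin gene, was at 75.3 ± 1.66 RPM (female) and 63.2 ± 1.68 RPM (male) (0.25 ± 0.18, adjusted p = 0.430).

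The heavy chain gene Slc3a2 was in females at 162 and 169.9 RPM and in males at 228 and 211 RPM (-0.40 ± 0.12, adjusted p = 0.0401). Of its partners, Slc7a7 differed as above, Slc7a6 gave no call (47.9 and 45.3 against 48.8 and 44.9 RPM; log2 difference -0.01 ± 0.16), and Slc7a5, the main carrier of leucine and other large neutral amino acids, was at 45.8 and 48.5 against 66.9 and 66.8 RPM (-0.50 ± 0.28, adjusted p = 0.283). The cystine and glutamate exchanger Slc7a11 was in females at 8.62 and 6.88 RPM and in males at 7.70 and 9.12 RPM. Calls for Slc7a3, Slc7a7, Slc38a2 and Slc38a4 held with each library left out. The others lost it: Slc3a2 and Slc38a8 without any 1 of the 4 (adjusted p from 0.109 to 0.221 and from 0.0755 to 0.212), Slc1a3 without male replicate 2 (0.279), female replicate 1 (0.252) or female replicate 2 (0.0615), Slc1a5 without male replicate 1 (0.0790), male replicate 2 (0.169) or female replicate 1 (0.227), and Slc6a8 without male replicate 2 (0.0619) or female replicate 2 (0.0684).

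**Figure D4:**
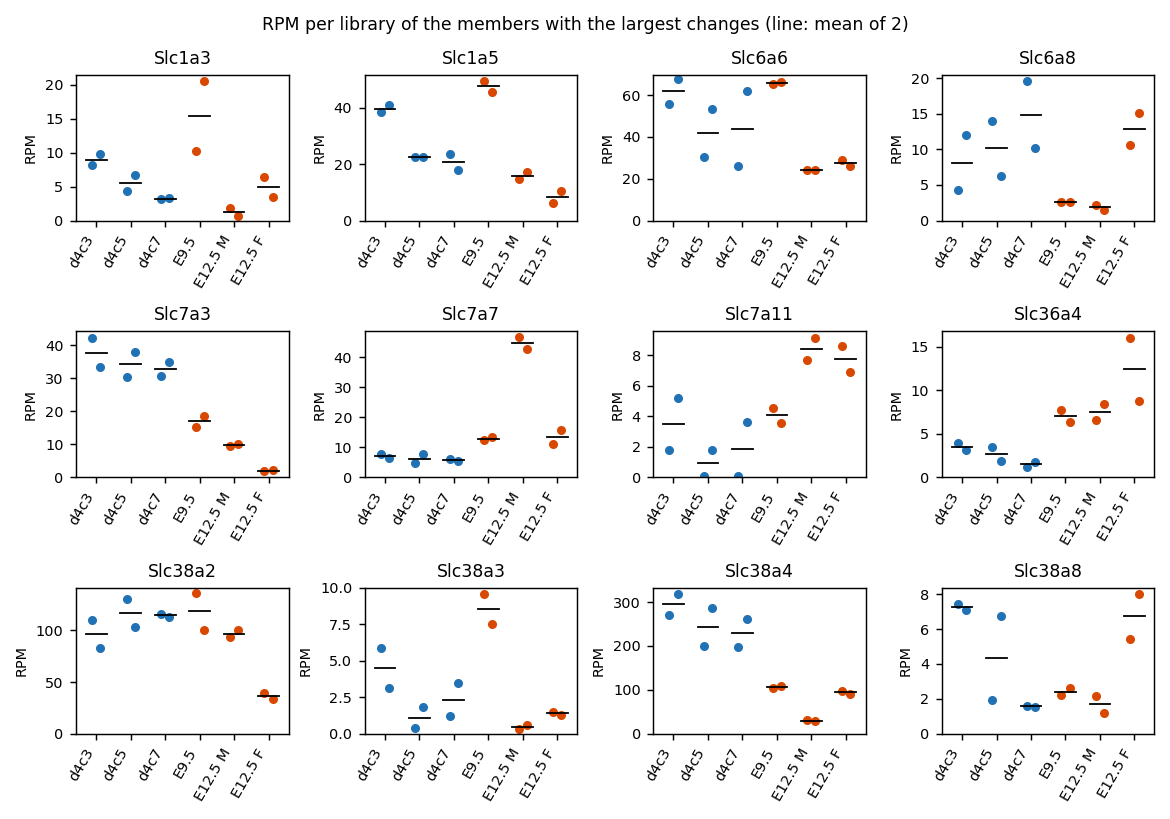
Each panel shows RPM per library in the 6 groups for the 12 genes that were called with a log2 change of at least 1 in size in any contrast, with a line at the mean of 2 libraries, PGCLCs in blue and embryonic germ cells in orange. Slc38a4 and Slc7a3 are higher in all PGCLC libraries than in any embryonic library, and Slc36a4 and Slc7a7 are lower.

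The culture comparisons asked how PGCLCs differ from embryonic germ cells and whether they change from culture day 3 to day 7. Against E9.5, d4c3 PGCLCs had higher Slc38a4, Slc7a3, Slc38a8 and Slc3a2. Slc38a4 was at 271 and 318 RPM in d4c3, with 103 and 108 RPM at E9.5, a log2 difference of 1.47 ± 0.17 (adjusted p = 3.71e-05). Slc7a3 was at 42.2 and 33.3 RPM, with 15.1 and 18.6 RPM at E9.5 (1.12 ± 0.24). Slc3a2 (NCBI gene 17254, chromosome 19, 8706882 to 8723369) was at 312 and 307 RPM, with 183 and 176 RPM at E9.5 (0.79 ± 0.12, adjusted p = 0.000289). Slc38a8 was at 7.43 and 7.10 RPM in d4c3 (1.28 ± 0.43, adjusted p = 0.0442).

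These 4 of 25 genes were all higher, beside 13.4% of all genes called higher, 10.3% lower and 23.7% in either direction. Other fits also called genes lower: Slc7a7 with medians of log ratios set to 0 (adjusted p = 0.0499) or on these 4 libraries alone (0.0471), and 2 genes without a filter. Slc38a4 and Slc3a2 kept the call with each library left out. Slc7a3 lost it without d4c3 replicate 1 (adjusted p = 0.0569) or E9.5 replicate 1 (0.0592), and Slc38a8 without any 1 of the 4 libraries (0.133 to 0.191), while Slc6a8, not called with all libraries (0.0741), was called without d4c3 replicate 1 (0.0292). The E9.5 libraries of this contrast are those with the globin and stromal transcripts, whose part in it was not tested.

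Over all 6 PGCLC libraries against all 6 embryonic libraries, 10 genes were higher and 3 lower of 25, beside 27.7% of all genes higher, 26.8% lower and 54.5% in either direction. Slc7a3 was between 30.4 and 42.2 RPM in PGCLCs and between 1.82 and 18.6 RPM in embryonic cells (2.12 ± 0.14, adjusted p = 5.56e-08). Slc38a4 was between 198 and 318 RPM and between 28.0 and 108 RPM (1.90 ± 0.10, adjusted p = 6.06e-09). Neither gene overlapped between culture and embryo. Slc7a9, a light chain known to pair with the heavy chain Slc3a1, was between 19.5 and 24.7 RPM in PGCLCs and between 10.6 and 16.5 RPM in embryonic cells (0.74 ± 0.12), while Slc3a1 was listed at 0 in all 12 libraries.

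Slc3a2 was between 239 and 322 RPM in PGCLCs and between 162 and 228 RPM in the embryo (0.66 ± 0.07), with no overlap. Its partner Slc7a6 was also higher (0.53 ± 0.10), with overlapping libraries, and its partner Slc7a5 was not called (0.17 ± 0.16, adjusted p = 0.386). Slc1a5 was also called higher (0.49 ± 0.14), but both E9.5 libraries, at 49.6 and 45.8 RPM, lay above every PGCLC library (18.1 to 40.8 RPM), so its direction held only against E12.5. The other genes called higher were Slc38a1 (0.65 ± 0.10), Slc38a2 (0.53 ± 0.10), Slc6a8 (1.08 ± 0.27) and Slc43a2, a carrier of branched-chain amino acids (0.64 ± 0.22). Slc6a8 varied widely in culture, at 4.30 and 12.0 RPM in d4c3, 14.0 and 6.32 RPM in d4c5, and 19.6 and 10.2 RPM in d4c7. Slc38a2 was between 83.4 and 131 RPM in PGCLCs, within the range of the E9.5 and male libraries or near it, and well above the female ones. In each of these 4 genes at least 1 PGCLC library lay within the embryonic range.

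The 3 genes that were lower in PGCLCs were Slc7a7, Slc7a11 and Slc36a4. Slc7a7 was between 4.68 and 7.82 RPM in PGCLCs and between 10.9 and 46.6 RPM in the embryo (-1.52 ± 0.17, adjusted p = 5.77e-06). Slc36a4, a proton-independent carrier of proline and tryptophan, was between 1.18 and 3.91 RPM and between 6.37 and 16.1 RPM (-1.50 ± 0.22, adjusted p = 5.65e-05). Slc36a4 reached 5 RPM in the 6 embryonic libraries only, so it passed the filter only through the side where it was high. It was highest in the female libraries, at 16.1 and 8.80 RPM. Slc7a11 was at 1.75 and 5.17 RPM in d4c3, 0.0974 and 1.75 RPM in d4c5, and 0.0785 and 3.63 RPM in d4c7. The embryonic libraries held 3.57 to 9.12 RPM of it (-1.56 ± 0.35), and the PGCLC values of 5.17 and 3.63 RPM lay within that range. Against E9.5 alone, Slc7a11 was not called in d4c3 (-0.29 ± 0.61, adjusted p = 0.777). Its PGCLC values below 0.1 RPM are less than the RPM of 1 read in their libraries, and in each culture group replicate 1 was the lower. Of the 13 calls, 12 held with each library left out in turn. Slc43a2 lost it without d4c3 replicate 2, d4c5 replicate 2, either E9.5 library, male replicate 1 or female replicate 1 (adjusted p from 0.0514 to 0.0869). Slc6a6 was called without d4c5 replicate 1 (0.0272) or d4c7 replicate 1 (0.00151), and Slc38a10 without d4c7 replicate 2 (0.0488).

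From d4c3 to d4c7 no transporter gene was called by limma, beside 2.75% of all genes tested (1.67% higher, 1.08% lower), and 8 of 25 had an unadjusted p under 0.05, beside 16.6% of all genes. The median log2 change was -0.19 over the 25 and 0.02 over all genes tested. Slc38a8 came nearest: it was at 7.43 and 7.10 RPM in d4c3, 1.95 and 6.78 RPM in d4c5 and 1.57 and 1.55 RPM in d4c7 (-1.69 ± 0.43, adjusted p = 0.0531). Slc1a5 was at 38.3 and 40.8 RPM, then 22.6 RPM in both d4c5 libraries, then 23.6 and 18.1 RPM (-0.90 ± 0.24, adjusted p = 0.0631). For both genes the d4c3 and d4c7 libraries did not overlap. Slc1a3 was at 8.21 and 9.76 RPM in d4c3 and 3.14 and 3.27 RPM in d4c7 (-1.24 ± 0.41, adjusted p = 0.146), and the cationic carrier Slc7a1 at 1.56 and 3.99 RPM and 8.69 and 6.20 RPM (1.22 ± 0.41, adjusted p = 0.143).

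Other genes differed between the 2 libraries of each culture group. Slc6a6 was at 55.9 and 67.6 RPM in d4c3 and in d4c7 at 25.9 RPM (replicate 1) and 61.9 RPM (replicate 2). Slc7a5 was at 64.9 and 95.4 RPM in d4c3, 46.0 and 80.0 RPM in d4c5, and 34.6 and 59.8 RPM in d4c7. For both genes replicate 1 was the lower in all 3 culture groups (Slc6a6 was at 30.2 and 53.3 RPM in d4c5). Without d4c7 replicate 2 both were called lower (adjusted p = 0.0123 for Slc6a6 and 0.0186 for Slc7a5), with log2 changes of -1.22 and -1.16. That library was also the deepest and the one with no spike-in value in the table. Replicate 1 of d4c5 and d4c7 held more Col3a1 and Dcn than replicate 2. Fn1 went the other way, at 171 and 397 RPM in d4c5 and 113 and 417 RPM in d4c7, as did the sum of the 11 stromal markers. The part of these transcripts in the values of Slc6a6 and Slc7a5 was not tested.

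**Figure D5:**
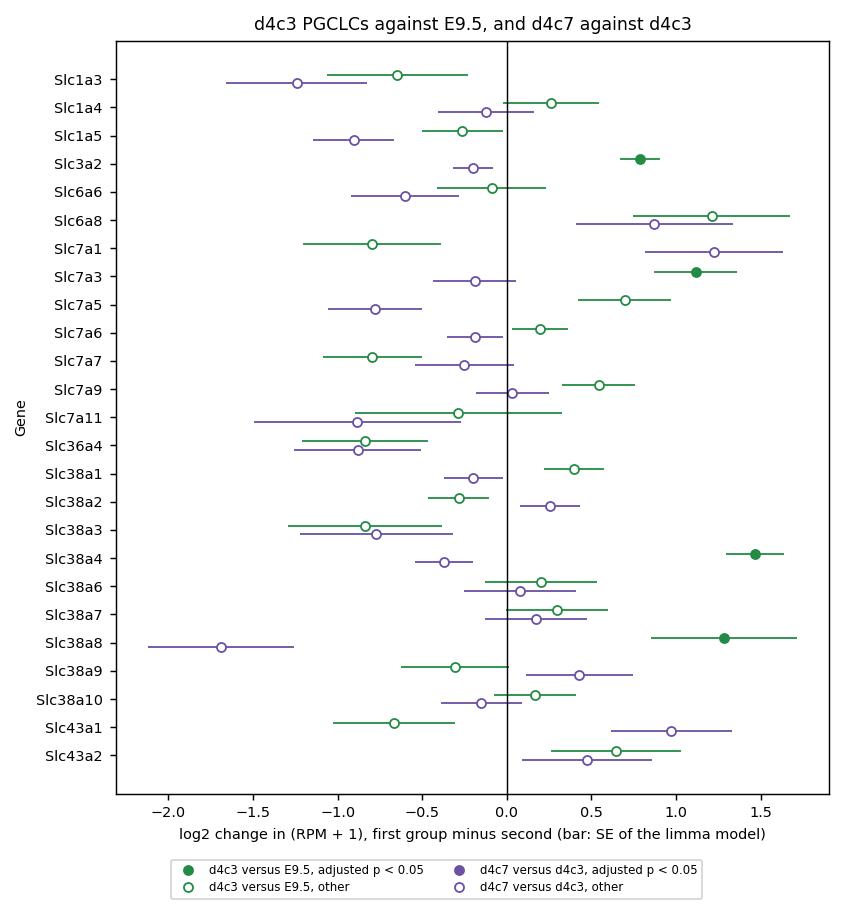
Points are log2 differences of the 25 genes for d4c3 against E9.5 (green) and for d4c7 against d4c3 (purple), with bars for the SE of the limma model and filled points for an adjusted p under 0.05. Filled are Slc3a2, Slc7a3, Slc38a4 and Slc38a8 in green, all right of 0, and no purple point.

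The other 8 tested genes, Slc7a5 among them, were called in no contrast, which does not show that they were level. The neutral carrier Slc1a4 was between 8.58 and 15.5 RPM in all 12 libraries, and Slc38a10 between 28.7 and 51.04 RPM. Slc38a9, a lysosomal arginine sensor for mTORC1, was between 4.69 and 11.8 RPM with both E12.5 female libraries highest, at 11.8 and 9.05 RPM. Slc38a7, a lysosomal glutamine exporter, was in females at 8.79 and 11.6 RPM and in males at 18.1 and 22.6 RPM, without overlap (-0.94 ± 0.30, adjusted p = 0.0588). Slc38a6 was between 3.15 and 6.13 RPM, and Slc7a1, given above, between 1.56 and 8.69 RPM. Slc43a1, which carries large neutral amino acids, was between 3.44 and 10.7 RPM, with 3.91 and 3.99 RPM in d4c3 and 7.07 and 10.7 RPM in d4c7 (0.97 ± 0.36, adjusted p = 0.187).

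Genes that sense or respond to amino acids were taken from lists. Of 27 tested genes of amino acid sensing by mTORC1, 4 rose and 2 fell in males against E9.5, and 4 rose and 2 fell in females, beside 37.7% and 37.5% of all genes called in either direction. Sesn2, which encodes a leucine sensor, had an E9.5 mean of 7.67 RPM and rose to 34.5 RPM in males (2.04 ± 0.42) and to 18.8 RPM in females (1.20 ± 0.42). Rragd, which encodes a Rag GTPase that recruits mTORC1 to the lysosome, had means of 10.2 RPM (E9.5), 1.69 RPM (male) and 11.0 RPM (female), and differed between the sexes by 2.15 ± 0.40. The median log2 change of the list was 0.07 in males and -0.01 in females, beside 0.05 and 0.04 over all genes.

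Of 16 tested genes of the response through Gcn2 and Atf4, 1 rose and 4 fell in males and 2 rose and 5 fell in females, where the shares of all genes were, for males, 20.0% called higher and 17.6% called lower, and for females 20.4% and 17.1%. Trib3, an inhibitory target of Atf4, had an E9.5 mean of 2.89 RPM and rose by 2.57 ± 0.34 in males, to 22.1 RPM, and by 2.50 ± 0.34 in females, to 20.99 RPM. Phgdh, the first enzyme of serine synthesis, fell from 88.0 RPM to 16.8 RPM and 22.7 RPM. Asns, the asparagine synthetase gene, had means of 247 RPM (E9.5), 125 RPM (male) and 298 RPM (female), with a log2 difference between the sexes of 1.25 ± 0.10. Of 7 tested genes of glutathione synthesis, which uses the cystine imported by Slc7a11, 2 rose and 1 fell in males and 2 rose in females, read against the same shares of all genes. Ggt1, a glutathione-degrading enzyme gene, rose from 0.590 RPM to 2.77 RPM and 10.3 RPM, and Gclc, the rate-limiting enzyme gene of the pathway, rose in females from 94.0 to 172 RPM. From d4c3 to d4c7, Gss was called in the last list (1.07 ± 0.26, adjusted p = 0.0430). It went from 29.0 ± 2.28 to 64.1 ± 23.2 RPM (mean ± SD), so its d4c7 libraries lay far apart. No gene was called in the other lists, beside 2.75% of all genes.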

How the data were processed

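Total RNA was amplified as cDNA and its 3′ ends were sequenced on a SOLiD instrument, in 12 libraries of 6 groups, per the labels' protocols. The authors deposited 1 table of RPM, read numbers scaled to a common total per library, with 26218 gene rows and 92 spike-in rows. Cufflinks 2.2.0, TopHat 1.4.1, cutadapt 1.3 and the build mm10 are listed in the submitters' processing notes without their roles, and strand use is not given in the sources used here. The most common value above 0 in each library was taken as 1 read. From 81.8% to 87.4% of values up to 20 reads were whole multiples of it within 0.1 read, so counts were not recovered. Slc genes were taken by symbol, and sequences and positions came from RefSeq GRCm38.p6.

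All 12 libraries entered a limma 3.58.1 model in R 4.3.3 on log2(RPM + 1), with a mean per group and a mean-variance trend, over 10856 genes with at least 5 RPM in at least 2 libraries. It had 6 residual and 8.02 prior degrees of freedom, and 6 contrasts were each adjusted by Benjamini-Hochberg. It was tested on simulated data. Genes that passed the filter are named, and those called with a log2 change of at least 1 are given in every library. Members and lists were chosen with earlier results of these data known. Alternatives were pseudocounts of 0.5 and 5, no filter, median centring, fits of the compared groups alone, a replicate block, leaving out each library, and minimums of 1 and 10 RPM.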

Additional observations from a re-analysis of the deposited data

Results flagged for a closer look

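Measured from the same E9.5 libraries, the change to E12.5 differed between females and males in 9 transporter genes. It was tested as the contrast of the sexes in the limma model, which is the difference of the 2 changes because they share the E9.5 libraries. These are therefore the calls between the sexes given above. The labels do not split E9.5 by sex, so a sex difference already present at E9.5 cannot be told apart from a different change. The change was more positive in females by 2.27 for Slc6a8, 1.63 for Slc38a4, 1.53 for Slc38a8 and 1.43 for Slc1a3 on the log2 scale. It was lower in females, with differences of -1.87 for Slc7a3, -1.70 for Slc7a7, -1.38 for Slc38a2, -0.89 for Slc1a5 and -0.40 for Slc3a2. These were 9 of 25 genes, beside 11.9% of all genes tested. The call held with each library left out in turn for Slc7a3, Slc7a7, Slc38a2 and Slc38a4, whereas each of the remaining 5 was no longer called when some single library was left out.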

How the results depend on the processing

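Counts of called genes are given here for the 6 contrasts. For d4c7 against d4c3 the count of 0 became 2 with a pseudocount of 5 (Slc1a5 and Slc38a8), 1 with medians of log ratios set to 0 and 1 with the replicate block (Slc38a8 both times), and leaving out a library gave 0 to 2. Over all genes, 298 were called in the main fit of that contrast, and 331, 309 and 358 in the first 3 of these fits. Without a filter, where 52 members were tested, females against males had 5 calls in place of 9 (all genes: 1070 in place of 1297). There, d4c3 against E9.5 had 7 in place of 4 (all genes: 2919 in place of 2574). It also had 7 when only its 4 libraries were fitted (all genes: 3372). Leaving out 1 library gave 6 to 7 calls for males against E9.5, 4 to 7 for females against E9.5, 4 to 6 for females against males, 2 to 3 for d4c3 against E9.5 and 12 to 14 for culture against embryo. In each of these contrasts except culture against embryo, fewer of all genes were called too. Same-numbered PGCLC libraries deviated together across genes (r = 0.116 to 0.455) and embryonic ones did not (-0.0236 to 0.0233). The labels tie no number to a day or batch, so the numbers were not used as a pairing. The replicate block gave 9, 9, 9, 5 and 13 calls in the other 5 contrasts in the order above (all genes: 4264, 4230, 1417, 2718 and 6052). A block within the 6 PGCLC libraries, chosen after seeing the data, gave 0 for d4c7 against d4c3 (all genes: 32). With minimums of 1 and 10 RPM, 36 and 17 genes passed in place of 25. No called change reversed its sign under any alternative run. The cause of these differences was not tested.

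Single calls were also lost in other fits. Without a filter Slc38a8 lost its 3 calls (adjusted p = 0.106 to 0.111), Slc1a3 was at 0.0513 in females against E9.5 and 0.118 between the sexes, Slc1a5 at 0.0518 and Slc3a2 at 0.0794 between the sexes, and Slc43a2 at 0.0661 in culture against embryo. Between the sexes Slc3a2 was at 0.0648 with medians set to 0, Slc1a3 at 0.0971 with a pseudocount of 5, and, with only the groups compared, Slc1a3 at 0.0763 and Slc1a5 at 0.117. With a pseudocount of 0.5 Slc38a8 was at 0.0553 in females against E9.5 and 0.0539 in d4c3 against E9.5. At this depth 1 read was worth 0.172 to 0.452 RPM.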

Other observations

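Of 15 tested genes among other amino acid and peptide carriers, 4 fell and 0 rose in males against E9.5 and 6 fell and 0 rose in females, beside 17.6% and 17.1% of all genes called lower. The globin and stromal transcripts of the E9.5 libraries moved with these falls, and their part in them was not tested. Among them was Slc25a13, a mitochondrial aspartate and glutamate carrier, with means of 176 RPM (E9.5), 75.6 RPM (male, -1.21 ± 0.16) and 86.3 RPM (female, -1.02 ± 0.16). Culture against embryo had 6 of these genes higher and 4 lower, beside 27.7% and 26.8% of all genes. Slc25a12, the paralogue of Slc25a13, had group means of 40.1 to 51.2 RPM in PGCLCs and 6.46 to 14.0 RPM in embryonic cells (2.07 ± 0.20). The peptide transporter Slc15a1 had group means of 8.21 to 11.8 RPM and 1.49 to 2.90 RPM (2.01 ± 0.25). It passed the filter through the PGCLC libraries, since no embryonic mean reached 5 RPM. Its paralogue Slc15a2 went the other way in d4c3 against E9.5, at 1.42 RPM and 11.2 RPM (-2.37 ± 0.38). Only the E9.5 mean of Slc15a2 was above 5 RPM, so it passed the filter through those libraries.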
